A study of Mus musculus with 3 samples.

Results

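The REV-ERB and ROR nuclear receptors were read on whole mouse ovary arrays through every non-control probe that the array names Nr1d1, Nr1d2, Rora or Rorb. These are 4 of the 28090 gene names on the array, read by 10 of its 41174 different probes: 3 of Nr1d1, 1 of Nr1d2, 3 of Rora and 3 of Rorb, each printed as 1 spot. Probes were taken by gene name, and the members were chosen with earlier results of these data known. Ovaries came from C57Bl/6J females aged 10 weeks, taken 3.5 days post copulation at Zeitgeber time (ZT) 12, when the light phase of 12 hours ends. All animals carried the floxed Bmal1 alleles (Bmal1fx/fx). The conditional knockouts (cKO, Bmal1fx/fxCresf-1) also carried a Cre transgene under control of Sf-1, and the controls, which the labels call wild type, carried no Cre. Sf-1 is known from steroid-producing cells of the gonad and adrenal, among other sites, so whole-ovary RNA mixes cells with and without Cre. Each of the 3 arrays paired RNA pooled from 3 cKO animals (cy3) with RNA pooled from 3 controls (Cy5), and no pool was used more than once, so an array is 1 replicate of the ratio. The dyes were not swapped, so dye and genotype cannot be told apart. Precision is limited by having 3 arrays.

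REV-ERB alpha (Nr1d1) and REV-ERB beta (Nr1d2) are nuclear receptors that bind heme and repress transcription through the NCoR corepressor and the histone deacetylase HDAC3. The ROR receptors, among them ROR alpha (Rora) and ROR beta (Rorb), bind the same DNA element, the RORE, and activate from it. BMAL1 with its partner CLOCK drives the REV-ERB genes from E-boxes, and the REV-ERB and ROR proteins in turn act on Bmal1 (symbol Arntl) itself, which closes the second loop of the circadian clock. Both families also act on genes of lipid metabolism. Rorb is best known from the brain, the retina and the pineal gland.

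The oligonucleotides that read Nr1d1 are shown first, because its probes gave ratios of different size. All member probes are 60 bases long, and of their 45 pairs 0 share a run of 15 bases on either strand, so each reads a different stretch of transcript. The letters come from the deposited scanner files, run 5′ to 3′, and none is marked in capitals. The first line below reads the stretch with the larger fall and the next is the dimmest Nr1d1 probe.
A_51_P223776: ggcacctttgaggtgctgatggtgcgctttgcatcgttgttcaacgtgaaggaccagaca
A_52_P130952: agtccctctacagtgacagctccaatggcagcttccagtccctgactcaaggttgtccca
The remaining probes that the results turn on are given by their first 30 bases, to show which oligonucleotide stands behind each value.
A_52_P130961 (Nr1d1): tggtgcctcatttctccatcacctacttac
A_52_P303891 (Nr1d2): ccagaactgttagtattgcttgtgatgctt
A_52_P652442 (Rora): gcaaggtgtctacgttaagagccctatgtg
A_51_P477779 (Rora): attatacaaggaattgttcacttcagaatt
A_52_P652950 (Rora): gtgtaggagtaactactcctaagaagatga
The last of these was designed on a cDNA clone from the ovary of a pregnant mouse and the other Rora probes on the RefSeq transcript. GC content was 53.3% for A_51_P223776, 48.3% and 55.0% for the other Nr1d1 probes, and 35.0% for the Nr1d2 probe. Where in each transcript the probes lie was not analysed here.

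Both REV-ERB genes were lower in the cKO ovaries and Rora was higher, each with 1 sign on all 3 arrays, but no member probe passed an adjusted p of 0.05. Nr1d2 came closest, at 4.50-fold lower, and the brightest Nr1d1 probe was 3.45-fold lower. The 2 brightest Rora probes were 2.29-fold and 2.45-fold higher. Rorb was not well above background in any pool. Of the 10 member probes, 7 passed the filter on dim probes, and each of these 7 was well above background in every pool of both genotypes. Ratios are log2 of cKO over control from the scanner's dye-normalised signals, as mean ± SD over 3 arrays, and p-values are from limma with Benjamini-Hochberg adjustment over the 26421 probes tested.

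**Figure D1:**
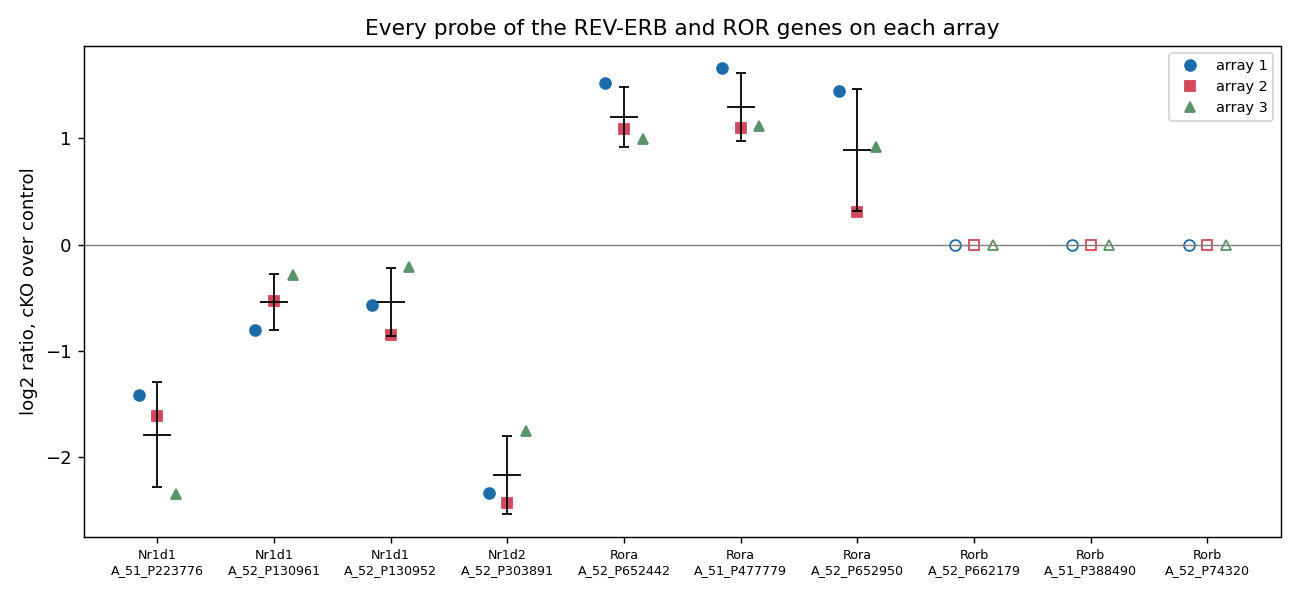
Log2 ratio of cKO over control (vertical axis) for each of the 10 member probes on arrays 1 to 3 (coloured symbols), with the mean and SD in black. The Nr1d1 and Nr1d2 probes lie below 0 and the Rora probes above 0 on every array, while the open Rorb symbols sit at 0 because the scanner software replaced both of their signals by surrogates.

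Nr1d2, read by 1 probe, had processed signals of 3374, 3560 and 3180 in the control pools of arrays 1 to 3. The cKO pools of the same arrays gave 670, 663 and 946. Every cKO pool lay below every control pool, and the control pools were close to each other. The log2 ratios were -2.33, -2.43 and -1.75, a mean of -2.17 ± 0.37 (SE 0.24, adjusted p = 0.0507, limma). It ranked 50th from the lowest mean among the 26421 probes tested, and its p-value ranked 60th. The call lies at the threshold. Nr1d2 passed when the probes tested were limited to those well above background in both channels (adjusted p = 0.0439, limma) or to 1 probe per gene (adjusted p = 0.0436, limma), with the same log2 ratio. It did not pass without the filter on dim probes (adjusted p = 0.432, limma) or with arrays scaled to equal spread (adjusted p = 0.129, limma). Nor did it pass with normexp (offset 50) and median centring (adjusted p = 0.108, limma).

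Nr1d1 differed between its probes in size and not in sign. By the brightest, A_51_P223776, the control pools gave processed signals of 557, 526 and 1250 and the cKO pools 210, 172 and 246 on arrays 1 to 3. These did not overlap, and the control pool of array 3 stood above the other two. The log2 ratios were -1.41, -1.61 and -2.34, a mean of -1.79 ± 0.49 (SE 0.27, adjusted p = 0.114, limma), which ranked 78th from the lowest mean. By A_52_P130961 the ratios were -0.81, -0.53 and -0.28, a mean of -0.54 ± 0.26 (adjusted p = 0.977, limma). A_52_P130952 gave -0.57, -0.85 and -0.21, also a mean of -0.54, with an SD of 0.32 (adjusted p = 0.995, limma). On both of these the cKO and control signals overlapped between arrays, though not within any. The brightest probe lay below A_52_P130961 by log2 differences of -0.60, -1.08 and -2.06, and below A_52_P130952 by -0.84, -0.76 and -2.13. It was furthest from both on array 3. Brightness differed too: the raw signal over its local background was 4.89 to 10.7 in the control pools for the brightest probe but 1.75 to 2.34 for A_52_P130961 and 1.45 to 1.75 for A_52_P130952. Its part in the difference between probes was not tested. In RefSeq's gene table for GRCm38.p6, Nr1d1 overlaps the thyroid hormone receptor gene Thra. Thra gave 0.62, 0.88 and -0.42 on arrays 1 to 3 by its brightest probe (mean 0.36 ± 0.69) and a mean of 0.23 by its other probe.

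**Figure D2:**
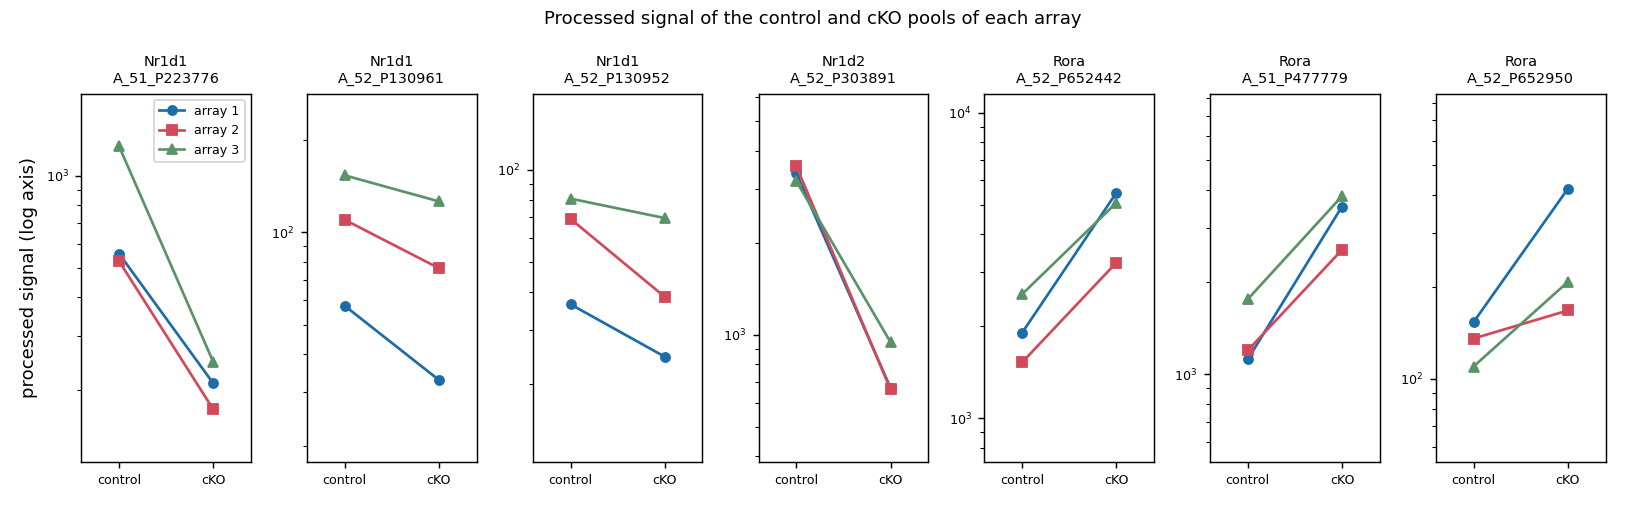
Processed signal (log axis) of the control pool and the cKO pool of each array, joined by a line, for the 7 member probes that passed the filter; each panel spans the same fold range. The Nr1d2 lines fall from similar control levels, the Nr1d1 lines are steep for A_51_P223776 and flatter for its dimmer probes, and all Rora lines rise.

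Rora was higher by all 3 of its probes, although none passed. A_52_P652442, the brightest, gave 1904, 1524 and 2546 in the control pools and 5459, 3229 and 5064 in the cKO pools. Its log2 ratios were 1.52, 1.08 and 0.99, a mean of 1.20 ± 0.28 (SE 0.23, adjusted p = 0.218, limma). A_51_P477779 followed it closely: the control pools gave 1118, 1195 and 1758 and the cKO pools 3531, 2550 and 3818. The ratios were 1.66, 1.09 and 1.12, with a mean of 1.29 ± 0.32 (adjusted p = 0.194, limma), and they differed from those of the brightest probe by at most 0.14 in size on any array. The dimmer A_52_P652950 gave 153, 136 and 110 in the control pools and 418, 167 and 208 in the cKO pools. Its ratios of 1.45, 0.30 and 0.92 had a mean of 0.89 ± 0.57 (adjusted p = 0.671, limma), and array 2 was the lowest. For each of the 3 probes all cKO pools lay above all control pools. By mean log2 ratio they ranked 218th, 188th and 435th from the highest.

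Rorb gave no measurable ratio. None of its 3 probes was well above background on any array in either channel, and the raw signal over local background lay between 0.971 and 1.16. The scanner software used surrogate values in both channels on all 3 arrays and listed every log ratio as 0. This is a bound on brightness and no measure of equal levels.

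Among all 26421 probes, 30 passed as higher (0.114%) and 29 as lower (0.11%), in all 0.223%, and 0 of the 7 member probes were among them. At an unadjusted p under 0.05, 2 member probes were lower, against 2.55% of all probes, and 3 were higher, against 2.77%. Of all probes 11.6% were lower on all 3 arrays and 11.6% higher on all 3. The 4 REV-ERB probes were among the first and the 3 Rora probes among the second. Signals without overlap, with all cKO pools below all control pools, occurred for 3.23% of probes and for 2 of the 4 REV-ERB probes. The opposite order occurred for 3.02% of probes and for all 3 Rora probes. A mean log2 ratio of -1 or lower was seen for 1.06% of probes, Nr1d2 and the brightest Nr1d1 probe among them, and one of 1 or higher for 1.26%, with 2 Rora probes among them. Probes of 1 gene read the same transcripts and are not independent.

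**Figure D3:**
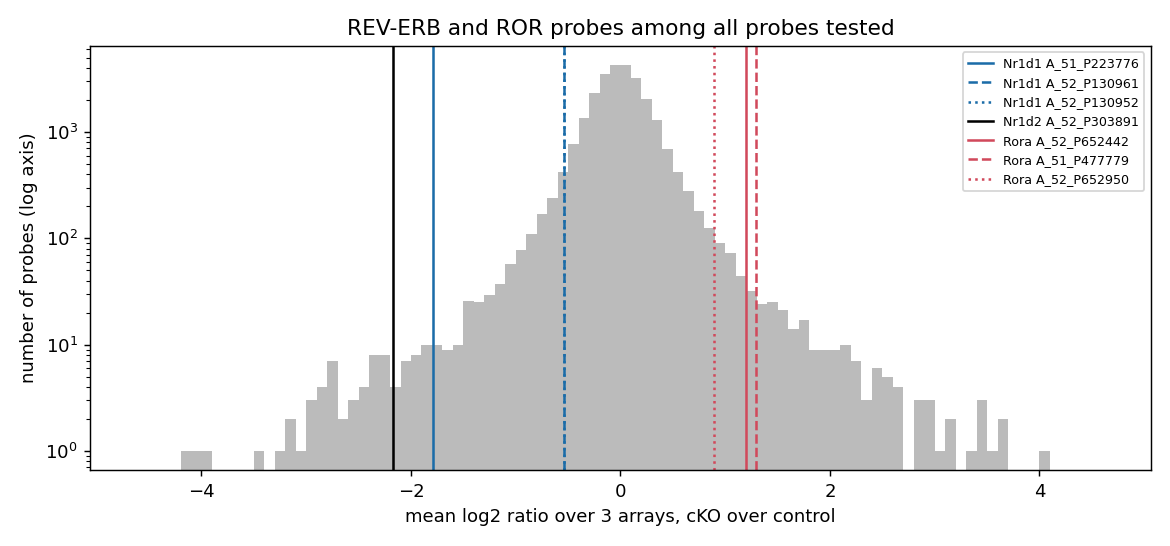
Histogram of the mean log2 ratio of cKO over control over 3 arrays for the 26421 probes tested (probe number on a log axis), with a vertical line at each of the 7 member probes. Nr1d2 at -2.17 and Nr1d1 at -1.79 lie in the lower tail, the Rora probes at 0.89 to 1.29 in the upper tail, and the 2 dimmer Nr1d1 probes, whose lines coincide at -0.54, nearer the centre.

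The 250 bases before the annotated transcription start of Nr1d1 and Nr1d2 are printed to show which letters of the clock's known motifs they hold. They are taken from RefSeq on GRCm38.p6, where all 4 members matched, in the gene's own direction. Capitals mark matches on either strand to the E-box CACGTG, its variant CACGTT, the RORE core AGGTCA, or the D-box TTATGTAA or TTACGTAA.
Nr1d1 (chr11:98775378-98775627, minus strand): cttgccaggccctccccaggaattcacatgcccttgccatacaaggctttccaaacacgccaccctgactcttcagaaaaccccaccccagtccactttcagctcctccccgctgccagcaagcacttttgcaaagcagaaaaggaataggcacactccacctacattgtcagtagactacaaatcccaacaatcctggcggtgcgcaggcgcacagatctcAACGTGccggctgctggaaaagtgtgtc
Nr1d2 (chr14:18239107-18239356, minus strand): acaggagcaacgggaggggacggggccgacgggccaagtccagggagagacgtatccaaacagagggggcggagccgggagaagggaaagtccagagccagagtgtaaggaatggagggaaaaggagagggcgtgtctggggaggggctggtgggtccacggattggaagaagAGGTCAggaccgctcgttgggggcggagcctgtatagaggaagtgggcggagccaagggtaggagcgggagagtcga
In Nr1d1 the match is AACGTG, the reverse complement of the E-box variant, which begins at position -28 from the start. The variant is held by 3.85% of the 32851 windows of this length in the table. In Nr1d2 the match is AGGTCA at position -77, held on either strand by 14% of windows. The E-box CACGTG was in neither window and is in 6.02% of all, and the D-box is in 0.931%. The Rora window held no match to any of them, and of the windows of the 2 annotated Rorb starts, the second held AACGTG at position -234. A match here is a description of letters and not a site, and the motifs do not overlap each other in these windows.

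Genes with ROREs, through which the receptors act, lay mostly above 0. The list holds 10 genes reported as targets of REV-ERB or ROR, of which 9 were tested; 0 passed over all probes, 5 were higher on all 3 arrays and 1 was lower on all 3. The list's median was 0.73, and 1.01, 0.56 and 0.71 on arrays 1 to 3, against -0.01 for all probes tested. Genes of the list are named here beyond the rule for named genes, after their values were seen, so that more of the list can be read. Npas2, which can replace CLOCK as the partner of BMAL1, gave 34.1, 40.3 and 45.3 in the control pools and 238, 129 and 172 in the cKO pools, log2 ratios of 2.80, 1.67 and 1.92 (mean 2.13 ± 0.59, adjusted p = 0.0808, limma). The groups did not overlap. Its control signals were dim, and the mean was 0.55 after normexp with an offset of 50 and loess, and 1.14 with an offset of 0. Cry1, a repressor of BMAL1 and CLOCK, was at 1.88, 0.84 and 2.25 (mean 1.66 ± 0.73, adjusted p = 0.225, limma), with its other probe at 1.12. Nfil3, a repressor that competes with the PAR bZIP factors at D-boxes, was at 1.24, 0.99 and 0.71 (mean 0.98 ± 0.26, adjusted p = 0.351, limma) and 0.89 by its other probe.

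The targeted clock gene Arntl, itself a RORE gene, was at 0.26, 0.10 and -0.28 (mean 0.03 ± 0.28) by its 1 probe; the labels do not say which exons lie between the loxP sites, so the probe is no check of the deletion. Clock had a mean of 0.42 ± 0.47. Among genes outside the clock, the hormone Fgf21 gave cKO signals of 120, 34.0 and 76.3 and was not well above background in any control pool. With signals brought between arrays to the same quantiles of average intensity, it was at least 2.85-fold higher. This compares the mean of the cKO pools with a bound set by the lowest control signal well above background on each array. The bound holds for that processing only. After normexp and loess the log2 ratio of Fgf21 was 1.20 with an offset of 0 and 0.46 with an offset of 50. Fgf21 passed the filter on dim probes only through the cKO channel and so had to differ. The apolipoprotein Apoc3 (-0.19 ± 0.32) and the Purkinje cell gene Pcp2 (-0.30 ± 0.21) lay below 0 by their brightest probes, and Elovl3 was too dim to test. The other probes of Apoc3 and Pcp2 gave -0.16 and 0.02. The median is the same with Fgf21 at its bound. Over the 7 genes that had both channels well above background throughout, it was 0.42.

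**Figure D4:**
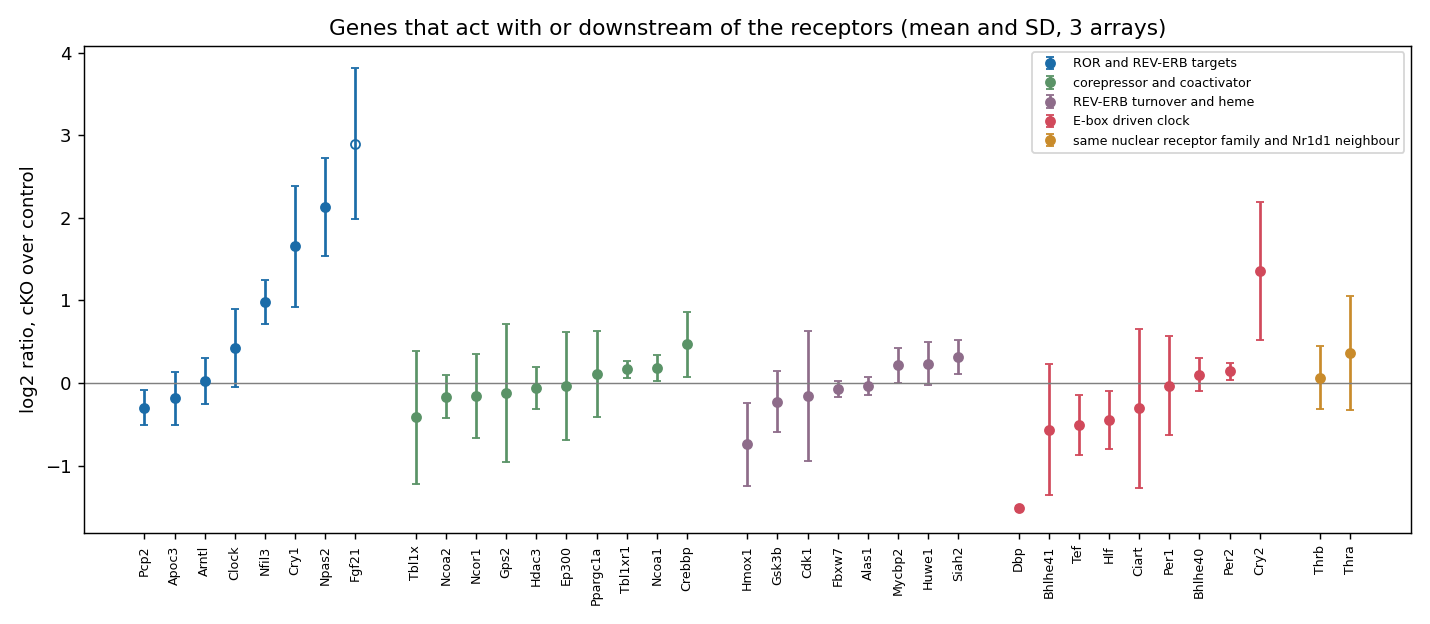
Mean and SD over 3 arrays of the log2 ratio of cKO over control for tested genes of 5 lists (colours), ordered by mean within a list; open symbols are genes not well above background in every control pool. Npas2, Cry1 and Nfil3 stand above 0 among the receptor targets, the corepressor and coactivator genes lie between -0.42 and 0.47, and Dbp is the lowest of the E-box genes at -1.52.

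Partners of the receptors lay near 0. Of 11 corepressor and coactivator genes 0 passed, and the median was -0.06, or 0.17 with median centring. Means ran from the NCoR complex subunit Tbl1x (-0.42 ± 0.81) to the coactivators Ncoa1 (0.18 ± 0.16) and Crebbp (0.47 ± 0.39). Of 8 genes for the turnover of REV-ERB proteins and for heme, their ligand, 0 passed, with a median of -0.06, or 0.16 with median centring. The lowest were heme oxygenase Hmox1, which breaks heme down (-0.74 ± 0.50, lower on all 3 arrays, adjusted p = 0.793, limma), and the kinase Gsk3b (-0.22 ± 0.37). The highest were the ubiquitin ligases Huwe1 (0.23 ± 0.26) and Siah2 (0.31 ± 0.21). Thrb, a thyroid hormone receptor gene, was at 0.06 ± 0.38.

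Other clock genes driven from E-boxes gave values on both sides of 0. Of 10 genes 9 were tested, 0 passed, and the median was -0.31, or -0.02 without array 1. Dbp, a PAR bZIP activator, was lower by nearly the same amount on every array, at -1.50, -1.50 and -1.55 (mean -1.52 ± 0.03, adjusted p = 0.0877, limma), with control signals of 31552, 31926 and 35733 and cKO signals of 11146, 11250 and 12207. The repressor Bhlhe41 was at -0.57 ± 0.79. At the other end, by their brightest probes, were the repressors Per2 (0.14 ± 0.10) and Cry2 (1.60, 2.06 and 0.43, mean 1.36 ± 0.84, adjusted p = 0.431, limma). Their other probes gave means of -0.04 for Per2 and 0.74 for Cry2. The order of the REV-ERB genes and Dbp below 0 and of the brightest Cry2 probe above it held on all 3 arrays.

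The probes with the most similar ratios, by Euclidean distance over the 3 arrays among probes with a current gene symbol, differed by gene. For the brightest Nr1d1 probe they read Aldh1l1, a folate enzyme (distance 0.39), Fdps, an enzyme of cholesterol synthesis (0.43), and the potassium channel Kcnk3 (0.44). Nearest to Nr1d2 were Mogat2, an acyltransferase of lipid synthesis (0.40), Xlr5a (0.50) and the scaffold protein Lin7b (0.51). For the brightest Rora probe they read Fsd1 (0.09), Pappa, a protease that cleaves IGF-binding proteins (0.16), and the glycosyltransferase Galnt12 (0.23). With 3 arrays this measure describes the level of the ratio more than a pattern.

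Markers of the ovary's own cells were measured: 8 of 8 for luteal cells, 6 of 6 for granulosa cells and 8 of 8 for oocytes were bright enough to test. Summed processed signals of the 8 luteal markers ranged from 398796 to 533196 in the cKO pools and from 430077 to 592855 in the control pools, so they overlapped. Single luteal markers lay on both sides: Star, the cholesterol transporter of steroid synthesis, passed as lower, Lhcgr, the receptor of luteinizing hormone, was at -1.26 and Prlr, the prolactin receptor, at -0.34, while Ptgfr, a prostaglandin receptor, was at 0.96, Sfrp4 at 0.42 and the progesterone-inactivating enzyme Akr1c18 at 1.71 ± 1.83. Of the fibroblast, macrophage and lymphocyte markers 0 passed. The 6 fibroblast markers, whose means all lay above 0, summed to 113357 to 154368 in the cKO pools against 69467 to 106143 in the control pools, the 6 macrophage markers to 80880 to 163648 against 30979 to 59107, and the 7 lymphocyte markers to 963 to 1570 against 778 to 891. Most of the macrophage sum came from Lyz2, the lysozyme gene, which was at 2.62, 1.31 and 0.58 on arrays 1 to 3. Means of all 6 macrophage markers lay above 0. The 5 other than Lyz2 were all above 0 on arrays 1 and 2 and all below 0 on array 3. Csf1r (-1.49) and Cd68 (-1.02) were the lowest there. Of the lymphocyte markers 5 had means above 0 and 2 below, with Cd3e at -0.62. Smooth muscle and epithelial markers differed between arrays as well, with medians of 0.23, 1.16 and -1.21 and of 1.38, -0.45 and -0.42. Their part in the receptor values was not tested, and in whole ovaries fewer cells of a type and less RNA per cell cannot be told apart. Across the 26421 probes (probes are not replicates), Pearson's r between arrays was 0.476 for 1 and 2, 0.072 for 1 and 3 and -0.214 for 2 and 3, and 36.5% of probes had the same sign on arrays 2 and 3, where all 7 member probes kept theirs.

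The other processing choices that gave a value for a member probe kept its sign. Normexp with an offset of 50 and loess gave -2.01 ± 0.31 for Nr1d2 (adjusted p = 0.0652, limma) and 1.11 ± 0.30 for the brightest Rora probe, close to the values above. It moved the brightest Nr1d1 probe toward 0, from -1.79 to -1.36 ± 0.47. The dim probes moved toward 0 as well: the other Nr1d1 probes went from -0.54 to -0.23 and -0.19, and A_52_P652950 of Rora became 0.32. An offset of 0 in place of 50 was an alternative added after the data were seen. With it the dim Nr1d1 probes stood at -0.47 and -0.48, and Nr1d2 at -2.17 passed (adjusted p = 0.0222, limma). A_52_P652950 of Rora stood at 0.47 with it, against 0.89 from the scanner's ratios. The slide of array 1 held no other array, and arrays 2 and 3 shared a slide. Within the latter the means of the brightest probes were -2.09 for Nr1d2, -1.98 for Nr1d1 and 1.04 for Rora. Of these the Nr1d2 and Nr1d1 probes passed (adjusted p = 0.00568 and 0.0130, limma). The dimmer Nr1d1 probes, A_52_P130961 and A_52_P130952, gave -0.40 and -0.53 there and did not pass, and A_52_P652950 of Rora gave 0.61. That fit gave the 2 probes that passed an SE of 0.48, which pools the spread over probes and does not measure their own.

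**Figure D5:**
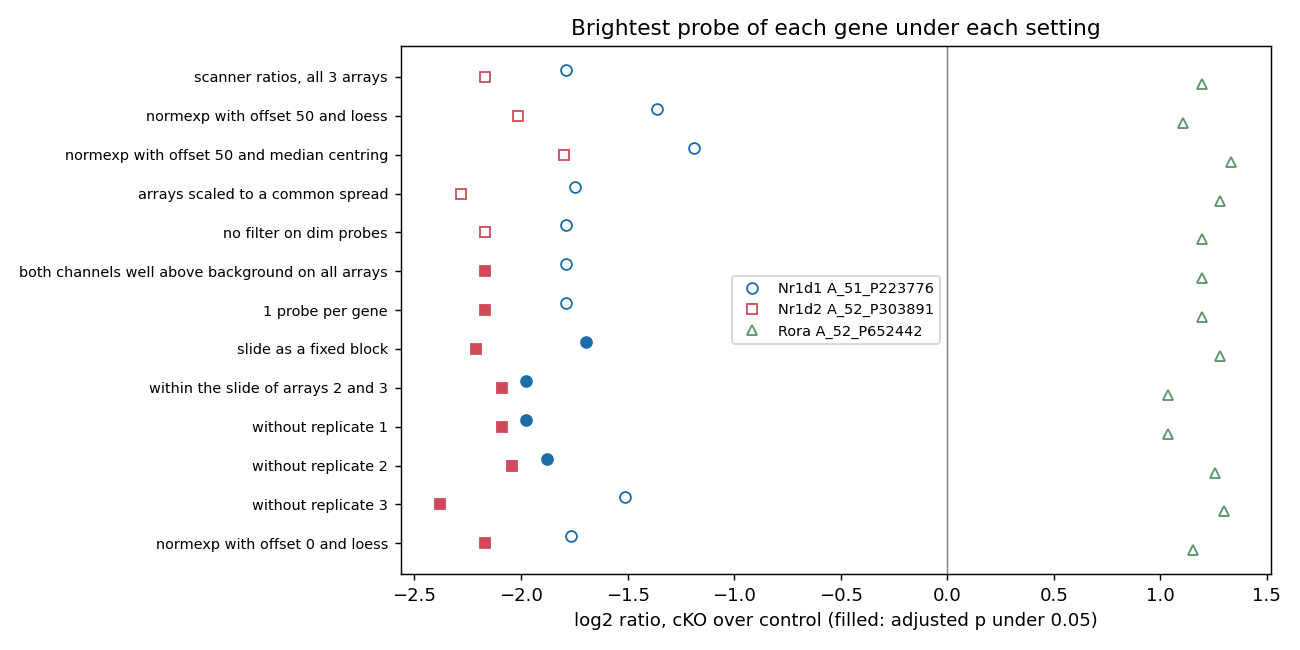
Log2 ratio of cKO over control (horizontal axis) of the brightest probe of Nr1d1, Nr1d2 and Rora under 13 settings (the slide of arrays 2 and 3 and leaving out replicate 1 are the same fit), with filled symbols where the adjusted p was under 0.05. Nr1d2 stays between -2.38 and -1.80, Nr1d1 between -1.98 and -1.19 and Rora between 1.04 and 1.33, while the symbols of the REV-ERB genes change between open and filled and those of Rora are all unfilled.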

How the data were processed

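RNA of mouse ovary pools was measured on 3 two-colour Agilent arrays of 45018 features each. Per the file headers, Agilent Feature Extraction 9.1.3.1 detrended the spots and normalised the dyes; the spot values show that it subtracted the local background and a spatial surface. The deposited log10 ratios are of control over cKO, and the series' value table holds the same log10 values (largest difference 0). They were turned to log2 of cKO over control. The deposited processed intensity values show levels, and the raw spot and background intensity values in the same deposited files served the alternatives.

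Outlier spots (13, 4 and 0 on arrays 1 to 3) were dropped, and spots of a probe were averaged. Probes well above background on all 3 arrays in either channel were tested with limma 3.58.1 under R 4.3.3 (lmFit and eBayes, intercept only), checked on simulated data. List genes were read by their brightest tested probe. Named genes are all members and, per list, the 2 highest and 2 lowest. For likeness, the 3 nearest probes of each member's brightest probe were taken. Normalisation, dim-probe filter, slide and left-out arrays were varied. The p-values rest on the spread between pools of 3 animals, which limma combines with a spread pooled over probes. Where a probe's own spread was small the pooled part weighed most: Dbp had an SD of 0.03 and an SE of 0.21. Spots well above background made up 67.4% to 69.1% in the cKO channel and 62.9% to 65.8% in the control channel. The members and lists were chosen with earlier results of these data known. The cKO genotype labels end in 1, 2 and 3 on the respective arrays while the titles name Sf-1 Cre on each, and groups follow the titles. Some list genes count in the list totals and medians but are not reported here by name.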

Additional observations from a re-analysis of the deposited data

How the results depend on the processing

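Each alternative that gave a value for one of the 7 tested member probes kept its sign (1 probe per gene gave none for the 4 dimmer probes), and the calls moved. The 30 higher and 29 lower probes became 0 and 1 with normexp (offset 50) and loess, 0 and 0 with median centring, 8 and 1 with arrays scaled to equal spread and 0 and 0 without the filter on dim probes (1406 at an unadjusted p under 0.05 in limma with the reported setting, and 3061, 3950, 1546 and 2658 in these). Both channels well above background gave 23 and 32, 1 probe per gene 28 and 26, an offset of 0 with loess 37 and 40, the slide as a fixed block 170 and 117, and the slide of arrays 2 and 3 alone, which is the same fit as leaving out replicate 1, 71 and 79. Leaving out 1 array gave 41 to 197 higher and 52 to 158 lower. Without replicate 1 or replicate 2, and with the slide block, limma gave the member probes nearly the same SE (0.48, 0.43 and 0.42). The SE of these fits is thus almost wholly the spread pooled over probes. Without replicate 3 it ran from 0.18 to 0.32. The slide could not be a random block, since limma needs more than 3 arrays, so the fixed form was added after the data were seen.

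Nr1d2 stayed between -2.38 and -1.80 over 11 distinct alternatives (adjusted p 5.59e-05 to 0.432, limma). It passed in 7 of them: -2.17 with both channels well above background, -2.17 with 1 probe per gene, -2.17 with an offset of 0, -2.21 with the slide block (adjusted p = 5.59e-05, limma), -2.09 within the slide of arrays 2 and 3, and -2.38 to -2.04 leaving out 1 array. The brightest Nr1d1 probe passed in 3, at -1.69 with the slide block, -1.98 within the slide of arrays 2 and 3 and -1.88 without replicate 2; leaving out 1 array gave -1.98 to -1.51 (without replicate 3 it did not pass). No Rora probe passed in any. The brightest ran from 1.04 to 1.33, A_51_P477779 from 1.11 to 1.57 and A_52_P652950 from 0.32 to 1.18. Rorb has no value in the fits, except that without the filter its ratio is listed as 0. The median of the receptor targets moved from 0.73 to 0.46 with loess, 0.47 with median centring, 0.42 with both channels well above background and 0.49 with an offset of 0. Median centring moved the median of all tested probes to 0.12, so its values are read relative to that.

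No paired analysis was possible because each array already holds 1 pool of each genotype and the ratio within a spot is the pairing. The brightness of the probe limits what can be measured: ratios of the dim Nr1d1, Rora and Npas2 probes shrink with normexp and loess. They shrink already with an offset of 0, and further with 50.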
